A study of Mus musculus with 4 samples.

Results

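The genes described here are 10 glutathione and oxidative defence genes of the mouse, taken by symbol from the 32285 genes of the feature table: Slc7a11, Gclc, Gclm, Mgst1, Gstm1, Txnrd1, Prdx1, Srxn1, Nqo1 and Akr1b8. All 10 were found. They were selected on the UMI counts of NdpKO against NdpWT per cell class in these same libraries, so every difference between genotypes in these 10 genes is given below as a description and carries no p-value. The measurements come from 4 droplet libraries of single cells from cerebellar subdural meninges. Those labelled NdpKO came from Ndp knockout mice and those labelled NdpWT from mice wild type for Ndp, with 2 libraries each, and the Ndp product, norrin, is secreted and activates Fzd4. Mice of both genotypes were Neurod2-SmoA1+/-, with an activated Smoothened driven by the Neurod2 promoter of neurons, so that the NdpWT libraries are not from mice free of the transgene. Each library pooled 5 cerebella, and the tissue was peeled from the cerebellum with the dura and choroid plexus set aside. The sample fields give an age of 6 to 8 days after birth and the protocol 7 to 9 days.

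Glutathione is a small thiol peptide made from glutamate, cysteine and glycine, and cells use it to reduce peroxides and to tag reactive compounds for export. A parallel thioredoxin system reduces oxidised proteins and peroxiredoxins. Many genes of both systems are targets of the transcription factor NRF2, which binds antioxidant response elements and is held down by KEAP1 until oxidants or electrophiles modify it.

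The libraries held 123270687 and 125981161 UMIs (unique molecular identifiers, each one captured transcript) in NdpKO and 114363848 and 121735724 in NdpWT. After filters on cells and removal of called doublets, 37915 cells remained, grouped into 17 classes, of which 10 had at least 50 cells in every library and were compared. Ndp itself had 40 and 50 UMIs over all kept cells in NdpKO and 200 and 138 in NdpWT, or 0.411 and 0.470 CPM (a gene's UMIs scaled to the total of the sum) against 2.07 and 1.35 CPM. The sources used here do not say which part of Ndp was removed, so the remaining UMIs check the labels only in their direction. NdpKO library 1 stood apart, with 21.8% of barcodes above the limit on mitochondrial UMIs, against 7.58% to 10.4% in the other 3 libraries. Between 49 and 92 kept barcodes per library also occurred in another library. Macrophages (605 and 538 cells in NdpKO, 1112 and 865 in NdpWT) were led by Lyve1, Mrc1 and F13a1. Fibroblasts (1226 and 1958 cells in NdpKO, 1128 and 2193 in NdpWT) were led by Aldh1a2, Slc6a13, Col15a1 and Lum. A further class, led in its largest cluster by Nppc, Ccn3, Lypd2 and Igfbp6, stayed unnamed because too few fixed markers were among its leading genes. It also held a shallow cluster led by Lypd2 and Igfbp6 and a small shallow one led by Bnc2 and Slc47a1. The class named granule neuron lineage (195 and 578 cells in NdpKO, 614 and 237 in NdpWT) was a single cluster led by Zmat4, Cntn2 and Grin2b. The unnamed neural clusters (1990 and 5136 cells in NdpKO, 4336 and 5580 in NdpWT) were mostly nearest to that class by marker sums. They included clusters led by Draxin, by Cntn2 and by histone genes. Granule cells below are only those of the named cluster.

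The 10 genes lie on 7 chromosomes (GRCm38, RefSeq). Gstm1 (chr3:108012250-108017973), Gclm (chr3:122245487-122267215) and Slc7a11 (chr3:50364936-50499087) share chromosome 3, and Mgst1 (chr6:138140527-138156755) and Akr1b8 (chr6:34354146-34368461) share chromosome 6. The others are Srxn1 (chr2:152105524-152111376), Prdx1 (chr4:116685599-116700000), Nqo1 (chr8:107388225-107403205), Gclc (chr9:77754535-77794489) and Txnrd1 (chr10:82833951-82897724). RefSeq promoter sequence was at hand for 9 of them, over 13 start sites. The 250 bases before each start were searched on both strands for the core of the antioxidant response element, TGACNNNGC (read as GCNNNGTCA on the other strand). It was present in the upstream sequence of 4 of these 9 genes, whereas 11.5% of 27025 genes with promoter sequence held it. The AP-1 type motif TGANTCA, which can overlap it, was present in 2 of the 9 genes and in 7.82% of all genes. The windows that hold these letters are shown because many of the 10 genes are known NRF2 targets, with the motif in capitals, and the strand of each gene is the one printed:
Mgst1, chr6:138140451-138140499, TGACNNNGC on the other strand: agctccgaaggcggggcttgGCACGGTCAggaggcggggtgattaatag
Gclm, chr3:122245403-122245451, TGACNNNGC on the other strand: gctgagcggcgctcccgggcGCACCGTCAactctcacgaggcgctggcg
Txnrd1, chr10:82859094-82859142, TGACNNNGC on the other strand, before the second of 3 starts: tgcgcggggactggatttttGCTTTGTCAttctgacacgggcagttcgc
Prdx1, chr4:116685446-116685494, TGACNNNGC on the other strand, overlapping TGANTCA: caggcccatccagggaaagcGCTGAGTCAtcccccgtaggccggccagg
Srxn1, chr2:152105402-152105448, TGANTCA: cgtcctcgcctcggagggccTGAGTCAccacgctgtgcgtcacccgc
Srxn1, chr2:152105459-152105505, TGANTCA: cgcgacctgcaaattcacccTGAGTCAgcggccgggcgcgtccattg
In Prdx1 the printed stretch carried both motifs, and a further TGANTCA lay 231 to 237 bases before its start. The matches in Srxn1 lay 96 to 102 and 39 to 45 bases before its start. A match of letters is not a bound site, and Gstm1, Slc7a11, Akr1b8 and Nqo1 held neither motif within this window.

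In macrophages all 10 genes had a log2 change above 0 in NdpKO relative to NdpWT, with a median of 0.77, against -0.01 over the 12451 genes tested in that class. For 8 of the 10, both NdpKO libraries lay above both NdpWT libraries, an arrangement that 16.5% of all tested macrophage genes showed, while 17.1% lay below. In fibroblasts all 10 were again above 0, with a median of 0.49 against 0.00 over 15630 genes, and 8 of 10 did not overlap between genotypes, where 20.5% of all genes lay above and 19.6% below. These counts follow from how the genes were chosen and are not independent evidence of a direction. The same holds for the following values, since the libraries and cells kept in them also took part in the selection. Without NdpKO library 1 all 10 were above 0, with a median of 0.73 in macrophages and 0.60 in fibroblasts. Without NdpKO library 2, 9 of 10 were above 0 in macrophages (median 0.74) and 8 of 10 in fibroblasts (0.35). Without NdpWT library 1, 9 of 10 were above 0 in macrophages (0.59) and 9 of 10 in fibroblasts (0.45), and without NdpWT library 2 all 10 were in both (1.13 and 0.53). Without the shallow clusters 8 of the 9 members then tested in macrophages and 10 of 10 in fibroblasts were above 0. In macrophages and fibroblasts the order of the genes differed: Mgst1 led in macrophages and Nqo1 in fibroblasts.

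**Figure D1:**
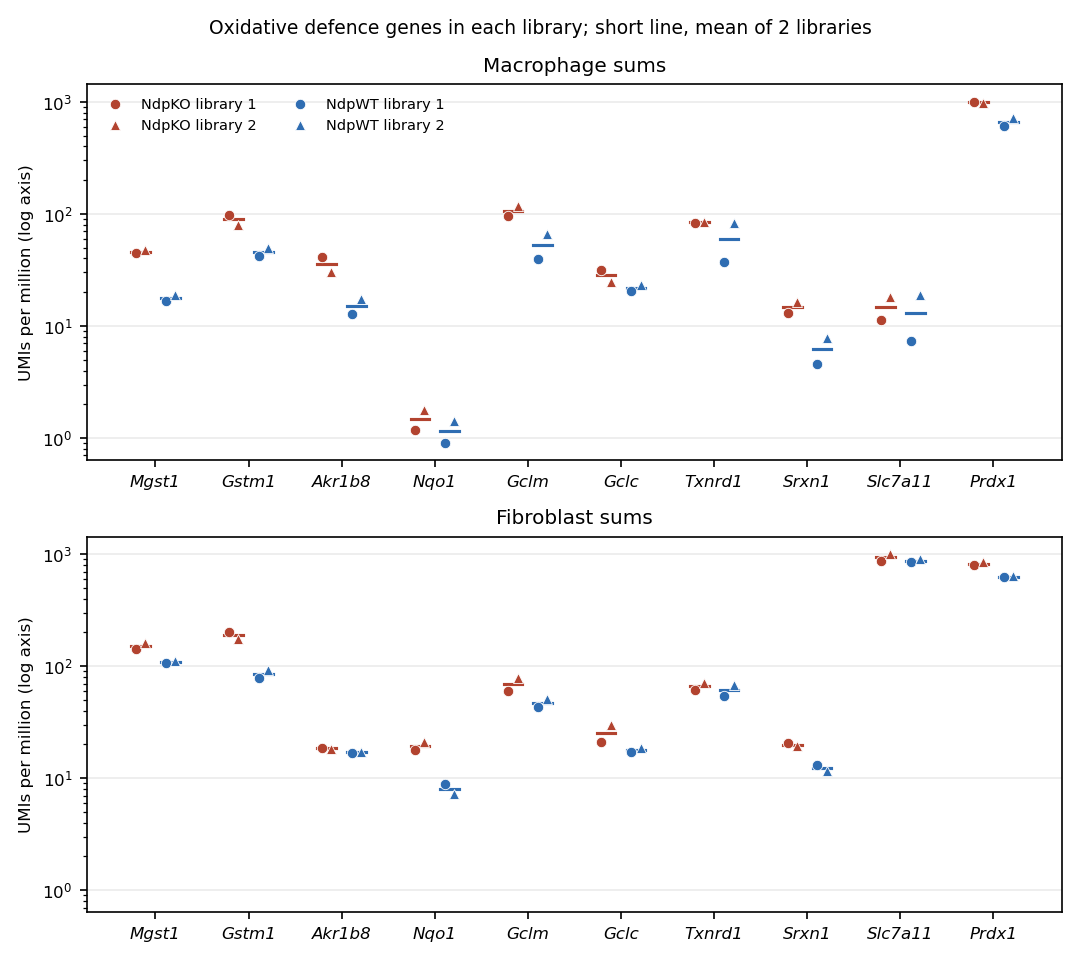
CPM (log axis) of each gene in each of 4 libraries, in summed macrophages (top) and summed fibroblasts (bottom), with NdpKO in red left of NdpWT in blue and a short line at the mean of 2 libraries. All genes but Nqo1 and Slc7a11 are separated by genotype in macrophages, Txnrd1 only narrowly. All but Txnrd1 and Slc7a11 are separated in fibroblasts.

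Slc7a11, the light chain of the transporter that brings cystine into the cell in exchange for glutamate, marked the fibroblasts. Normalised across all 10 classes, its level there was 797 and 921 CPM in NdpKO and 770 and 827 CPM in NdpWT. The mean over the 4 libraries was 829 ± 65.6 CPM (SD, n = 4). The next class, monocytes or dendritic cells, had 76.5 ± 36.8 CPM, with 22.4 and 101 CPM in NdpKO and 84.2 and 98.2 CPM in NdpWT, and did not overlap with fibroblasts. The other 8 classes ran from 12.2 CPM in other neurons to 42.2 CPM in erythroid cells on average, and neighbours in that order overlapped. With totals only erythroid cells had 17.3 CPM, and macrophages were lowest, at 14.0 CPM. Thinned to 2000 UMIs per cell, which left out between 58 and 257 shallower fibroblasts per library, 65.4% and 69.0% of NdpKO fibroblasts and 69.1% and 68.4% of NdpWT fibroblasts had a Slc7a11 UMI. Without thinning the shares were 81.2% and 85.3% in NdpKO and 88.8% and 84.8% in NdpWT. The thinned share in macrophages was 4.66% and 3.73% in NdpKO and 1.42% and 3.87% in NdpWT, where granule neuron lineage cells had 2.59% and 5.21% in NdpKO and 2.32% and 2.97% in NdpWT. Library by library, the macrophage share lay above the granule cell share in NdpKO library 1 and NdpWT library 2. It lay below in NdpKO library 2 and NdpWT library 1. The part of RNA from other cells in these shares was not tested. Median depths were 24998, 14963, 16758 and 11753 UMIs in fibroblasts and 11198, 7240, 8603.5 and 5989 UMIs in granule neuron lineage cells of NdpKO libraries 1 and 2 and NdpWT libraries 1 and 2.

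Slc7a11 differed little between genotypes where it was highest. Within fibroblasts it had 874 and 1007 CPM in NdpKO and 850 and 903 CPM in NdpWT (normalised within the class, as are all comparisons of genotypes), a log2 change of 0.10 ± 0.13 (SE), with overlapping libraries. In macrophages it had 11.4 and 18.2 CPM in NdpKO and 7.38 and 18.9 CPM in NdpWT, also overlapping. Its log2 change there was 0.18 ± 0.57 and turned to -0.17 without the clusters of low depth.

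Gclc and Gclm encode the catalytic and the modifier subunit of glutamate-cysteine ligase, the rate-limiting enzyme of glutathione synthesis. Their levels were ordered differently across the 10 compared classes. Gclc was highest in the Nppc-led clusters, at 56.0 ± 11.3 CPM (SD, n = 4), and the other classes lay between 15.7 and 28.1 CPM. Which of these 10 classes had the most Gclm depended on the scaling. With TMM factors it was erythroid cells, at 254 ± 37.3 CPM, against 112 ± 7.54 CPM in endothelial cells, and with totals only it was endothelial cells, at 123 ± 9.65 CPM, with the Nppc-led clusters at 114 ± 9.86 CPM and erythroid cells at 102 ± 3.57 CPM. The summed level of 9 erythroid markers in erythroid cells was between 640568 and 709569 CPM. Gclc in erythroid cells likewise had the second rank with TMM factors and the lowest level with totals only, at 11.0 CPM.

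Gclm in macrophages had 96.7 and 118 CPM in NdpKO and 39.7 and 66.3 CPM in NdpWT, a log2 change of 1.02 ± 0.25. Its NdpWT libraries differed from each other more than its NdpKO libraries did, on the log scale, yet the genotypes did not overlap. In fibroblasts Gclm had 60.6 and 77.7 CPM in NdpKO and 43.4 and 50.6 CPM in NdpWT, a log2 change of 0.55 ± 0.15. Gclc changed by less in macrophages, with 31.9 and 24.7 CPM in NdpKO and 20.7 and 23.0 CPM in NdpWT, a log2 change of 0.39 ± 0.18. Fibroblast Gclc had 20.9 and 30.0 CPM in NdpKO and 17.2 and 18.7 CPM in NdpWT, a log2 change of 0.50 ± 0.18. Both subunits were thus separated by genotype in both classes, with the smallest gap for macrophage Gclc. In the Nppc-led clusters Gclc had 77.3 and 61.0 CPM in NdpKO and 55.9 and 48.8 CPM in NdpWT, a log2 change of 0.40 ± 0.15, whereas Gclm changed by 0.03 ± 0.13 and overlapped. Gclc had a log2 change above 0 in all 10 classes, from 0.10 in endothelial cells to 0.61 in erythroid cells. In neurons other than granule cells Gclm was lower in NdpKO, with 48.8 and 56.3 CPM, against 72.3 and 81.1 CPM in NdpWT.

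Mgst1 is a membrane-bound glutathione transferase of the endoplasmic reticulum and mitochondria, and Gstm1 a cytosolic glutathione transferase of the mu class. Of the 10 compared classes, fibroblasts had the highest levels of both, at 118 ± 23.7 and 125 ± 56.5 CPM. The Nppc-led clusters followed, at 103 ± 10.3 and 91.5 ± 18.5 CPM (SD, n = 4). The libraries of fibroblasts and of the Nppc-led clusters overlapped for both genes. Among these 10 classes, granule neuron lineage cells had the lowest Mgst1, at 3.83 ± 1.36 CPM. Granule and other neurons had the lowest Gstm1, at 13.6 ± 3.72 and 10.8 ± 3.33 CPM, although with totals only erythroid cells had the lowest, at 10.9 CPM. Gstm1 has close paralogues beside it, such as Gstm2 and Gstm4, and UMIs from shared 3' sequence could be split between them.

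In macrophages Mgst1 had 44.6 and 47.6 CPM in NdpKO and 16.8 and 18.8 CPM in NdpWT. The log2 change of 1.37 ± 0.16 was the largest of the 10 genes in this class, and the genotypes did not overlap. Fibroblast Mgst1 had 142 and 160 CPM in NdpKO and 107 and 110 CPM in NdpWT, a log2 change of 0.48 ± 0.12. Gstm1 in macrophages had 98.8 and 80.0 CPM in NdpKO and 42.4 and 49.9 CPM in NdpWT, a log2 change of 0.96 ± 0.15. Fibroblast Gstm1 had 204 and 176 CPM in NdpKO and 78.0 and 92.3 CPM in NdpWT, a log2 change of 1.16 ± 0.14, without overlap. Thinned to 2000 UMIs, 29.2% and 27.0% of NdpKO fibroblasts and 12.2% and 15.1% of NdpWT fibroblasts had a Gstm1 UMI. The corresponding shares of macrophages were 17.4% and 14.9% in NdpKO and 7.53% and 9.66% in NdpWT, and those of granule neuron lineage cells 2.59% and 3.47% in NdpKO and 2.48% and 5.08% in NdpWT. Unthinned macrophage shares were 52.2% and 41.1% in NdpKO and 31.7% and 29.7% in NdpWT. The thinned shares had the same order of genotypes in both classes, but they come from the UMIs the genes were selected on, so this is a description. They stood above the granule cell shares, and the part of RNA from other cells was not tested.

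Endothelial cells differed from this picture for Gstm1, which had 41.5 and 34.6 CPM in NdpKO and 53.5 and 49.6 CPM in NdpWT, a log2 change of -0.43 ± 0.16 without overlap. Of the 9 members tested in endothelial cells, 2 lay above in NdpKO without overlap and 1 lay below, where 21% and 21.7% of all tested endothelial genes did. The endothelial cells fell into a cluster led by Slc38a5, Emcn and Kdr and one led by Fbln5, Gkn3 and Bmx. In the first, Gstm1 had 28.1 and 30.6 CPM in NdpKO and 61.1 and 51.9 CPM in NdpWT by plain totals. In the second it had 56.4 and 41.2 CPM in NdpKO and 31.2 and 43.5 CPM in NdpWT, which overlap. Endothelial Mgst1, with 63.8 and 66.6 CPM in NdpKO and 50.7 and 49.2 CPM in NdpWT, was above without overlap over the whole class. It was concentrated in the second cluster, at 104 and 115 CPM in NdpKO and 127 and 110 CPM in NdpWT, which overlap, against 27.2 and 34.8 CPM in NdpKO and 18.3 and 25.5 CPM in NdpWT in the first. That second cluster made up 44.1% and 34.7% of endothelial cells in NdpKO and 25.4% and 28.3% in NdpWT, and the part of this share in the class value was not tested. In neurons other than granule cells Mgst1 was lower in NdpKO, with 27.3 and 25.6 CPM (33 and 25 UMIs), against 66.2 and 56.0 CPM in NdpWT (108 and 29 UMIs). Of the 8 members tested in these neurons, 4 were lower in NdpKO without overlap and 1 higher, where 17.2% of all genes were lower and 17.2% higher. Nqo1 had 0 and 0 UMIs there in NdpKO and 10 and 2 UMIs in NdpWT, too few for the test.

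**Figure D2:**
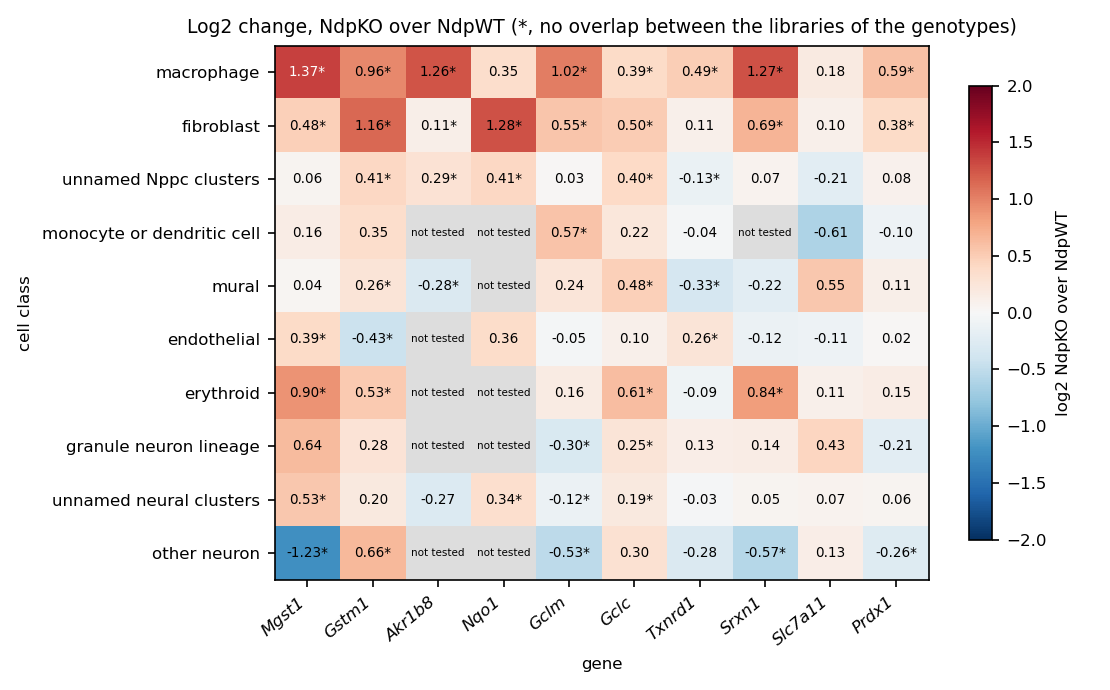
Log2 change of each gene, NdpKO over NdpWT, in each of 10 cell classes; red is higher in NdpKO, blue lower, grey not tested, and an asterisk marks genotypes whose libraries do not overlap. The macrophage and fibroblast rows are above 0 throughout, and Gclc is above 0 in every class.

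The thioredoxin arm is represented by Txnrd1, the cytosolic thioredoxin reductase, Prdx1, an abundant peroxiredoxin that reduces peroxides, and Srxn1, sulfiredoxin, which repairs over-oxidised peroxiredoxins. Txnrd1 was ordered unlike most of the other genes: its highest levels were in the unnamed neural clusters, at 239 ± 27.7 CPM, and in other neurons, at 222 ± 42.4 CPM, an order that turned with totals only, and its lowest in fibroblasts and the Nppc-led clusters, at 58.1 ± 7.19 and 55.6 ± 4.68 CPM (SD, n = 4). Over the 40 sums of a class in a library, its Pearson r with Gstm1 was -0.76 on the log2(CPM + 1) scale. Prdx1 had its highest levels in macrophages, at 899 ± 218 CPM, and in the Nppc-led clusters, at 839 ± 43.0 CPM, which overlap and changed places with totals only. The granule neuron lineage class had 50.4 ± 8.54 CPM of Prdx1, with no overlap with the next class. The unnamed neural clusters, mostly near that class by markers, had 344 ± 17.4 CPM. Srxn1 was low everywhere, from 3.54 ± 0.545 CPM in endothelial cells to 14.7 ± 4.04 CPM in fibroblasts, and with totals only erythroid cells were lowest, at 2.90 CPM.

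In macrophages Prdx1 had 1002 and 982 CPM in NdpKO and 608 and 714 CPM in NdpWT, a log2 change of 0.59 ± 0.15. Fibroblast Prdx1 had 798 and 844 CPM in NdpKO and 625 and 638 CPM in NdpWT, a log2 change of 0.38 ± 0.12. The genotypes did not overlap in either class, and in endothelial cells the change was 0.02 ± 0.13. Srxn1 in macrophages had 13.2 and 16.2 CPM in NdpKO (112 and 82 UMIs) and 4.59 and 7.78 CPM in NdpWT (51 and 55 UMIs), a log2 change of 1.27 ± 0.28. Fibroblast Srxn1 had 20.5 and 19.4 CPM in NdpKO and 13.2 and 11.6 CPM in NdpWT, a log2 change of 0.69 ± 0.14. Srxn1 was thus separated in both classes on few UMIs per cell. Txnrd1 in macrophages had 83.4 and 84.4 CPM in NdpKO and 37.3 and 83.0 CPM in NdpWT, a log2 change of 0.49 ± 0.46. Both NdpKO libraries exceeded NdpWT library 2 by less than 2 CPM, so the separation rests on NdpWT library 1. In fibroblasts Txnrd1 overlapped, with 61.3 and 70.8 CPM in NdpKO and 54.0 and 68.6 CPM in NdpWT.

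Nqo1, a quinone reductase, and Akr1b8, an aldo-keto reductase that reduces reactive aldehydes, were each restricted in where they were high. Nqo1 had 46.7 ± 9.59 CPM in the Nppc-led clusters (SD, n = 4), did not overlap with the next class, and had 12.5 ± 6.16 CPM in fibroblasts. The other 8 classes had 0.972 to 5.47 CPM. Akr1b8 had 27.8 ± 14.2 CPM in macrophages and 16.2 ± 0.813 CPM in fibroblasts, which overlap, then 10.1 ± 1.70 CPM in mural cells and 5.37 ± 0.696 CPM in the Nppc-led clusters. The remaining 6 classes had less than 2 CPM of Akr1b8.

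Nqo1 in fibroblasts had 17.8 and 21.0 CPM in NdpKO and 8.92 and 7.19 CPM in NdpWT, a log2 change of 1.28 ± 0.17, the largest of the 10 genes in this class. In the Nppc-led clusters, where it was highest, it had 61.3 and 54.6 CPM in NdpKO and 49.9 and 36.9 CPM in NdpWT, a log2 change of 0.41 ± 0.16. The genotypes did not overlap in either. Macrophages held 10 and 9 Nqo1 UMIs in NdpKO and 10 and 10 in NdpWT, too few to show a difference. Akr1b8 had the reverse pattern, with 41.0 and 30.4 CPM in macrophages of NdpKO and 12.9 and 17.5 CPM in those of NdpWT, a log2 change of 1.26 ± 0.20. In fibroblasts it had 18.7 and 18.2 CPM in NdpKO and 16.9 and 17.2 CPM in NdpWT. That log2 change of 0.11 ± 0.13 was within its error although the libraries did not overlap.

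The other classes gave fewer separations. In the Nppc-led clusters 4 of 10 members were higher in NdpKO without overlap and 1, Txnrd1, was lower, where 16.8% of all genes were higher and 16.1% lower. Shallow clusters held 36.4% and 48.7% of this class in NdpKO and 24.3% and 46.1% in NdpWT. With the stricter cell filter 6 of its 10 members had a log2 change above 0 (median 0.01), against 8 (0.08) in the fit described. Erythroid cells had 4 of 8 tested members higher and 0 lower, where 12.9% of all genes were higher and 11.8% lower, and Srxn1 there had 2.99 and 4.33 CPM in NdpKO and 2.44 and 1.81 CPM in NdpWT. Mural cells had 2 of 9 higher and 2 lower (17.8% and 17.9% of all genes), with Gclc at 17.5 and 24.2 CPM in NdpKO and 14.8 and 15.3 CPM in NdpWT. In monocytes or dendritic cells 1 of 7 was higher and 0 lower (15.8% and 15.4%). This was Gclm, at 41.4 and 31.9 CPM in NdpKO and 21.7 and 26.9 CPM in NdpWT. The granule neuron lineage had 1 of 8 higher, Gclc, and 1 lower, Gclm (15.1% and 15.2%), and the neural clusters 3 of 10 higher and 1 lower (11.4% and 12.5%). Counts near the share of all genes say nothing particular about the members.

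The differences were also seen within single clusters. In the largest macrophage cluster, led by Lyve1, Mrc1 and Fcna, Mgst1 had 46.2 and 51.0 CPM in NdpKO and 17.7 and 19.8 CPM in NdpWT by plain totals. Akr1b8 had 43.0 and 31.5 CPM there in NdpKO and 12.2 and 16.7 CPM in NdpWT. The second macrophage cluster was shallow, with a median of 1712 UMIs per cell, and held 33.7% and 23.6% of macrophages in NdpKO and 16.6% and 16.5% in NdpWT. NdpKO library 2 stood apart in it, with 114 CPM of Srxn1 (34 UMIs) against 8.58 CPM in NdpKO library 1 and 2.43 and 15.3 CPM in NdpWT. Without the shallow clusters macrophage Srxn1 had a log2 change of 1.02 ± 0.28, Gclm of 0.98 ± 0.24 and Mgst1 of 1.33 ± 0.16, so the values moved little or, for Srxn1, were smaller. The remaining small cluster, led by Cxcl2 and Ccl4, gave a different picture: Gclm had 67.3 and 73.2 CPM there in NdpKO and 44.6 and 162 CPM in NdpWT, so that NdpWT library 2 was the highest of the 4.

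Among fibroblasts the cluster led by Aldh1a2, Ranbp3l and Slc6a13 had more Gstm1 than the cluster led by Col15a1 and Lum, and both were higher in NdpKO. In the first, Gstm1 had 241 and 199 CPM in NdpKO and 111 and 141 CPM in NdpWT. In the second it had 130 and 147 CPM in NdpKO and 41.5 and 53.5 CPM in NdpWT. Nqo1 was ordered the other way between these clusters in NdpKO, with 14.3 and 14.99 CPM in the first and 25.6 and 33.2 CPM in the second, while NdpWT had 6.46 and 7.02 CPM in the first and 10.5 and 6.45 CPM in the second. The genotypes did not overlap in either cluster for either gene. The first cluster held 584 and 959 of the 1226 and 1958 fibroblasts in NdpKO and 473 and 841 of the 1128 and 2193 in NdpWT. The second held 265 and 542 in NdpKO and 524 and 934 in NdpWT. A shallow cluster held 25.9% and 18.2% of fibroblasts in NdpKO and 7.80% and 14.0% in NdpWT. The part of this mix in the class values was not tested.

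Levels of markers of other cell types were compared beside these results. The summed level of 10 fibroblast markers in macrophages was 379 and 491 CPM in NdpKO and 266 and 568 CPM in NdpWT, against 17792 to 22143 CPM in fibroblasts, and overlapped between genotypes. In macrophages 10 of 10 of these markers had UMIs in every library. The summed level of 9 erythroid markers in macrophages was 7671 and 2270 CPM in NdpKO and 3708 and 8323 CPM in NdpWT, also overlapping, and 2 of the 9 were at 0 in NdpKO library 2 and 1 in NdpWT library 1. In fibroblasts 10 macrophage markers summed to 70.4 and 39.6 CPM in NdpKO and 157 and 66.0 CPM in NdpWT. In endothelial cells the fibroblast markers summed to 1781 and 985 CPM in NdpKO and 523 and 1111 CPM in NdpWT. The part of RNA from other cells in the members' values was not tested, and in summed cells a change in the mix of clusters cannot be told apart from a change per cell. The libraries, 2 per genotype, were pooled from several litters. The p-values below therefore weigh the difference between genotypes against the spread between pools, not between animals. The fit estimated that spread with information shared over genes, and did not use the litter match of the protocol.

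**Figure D3:**
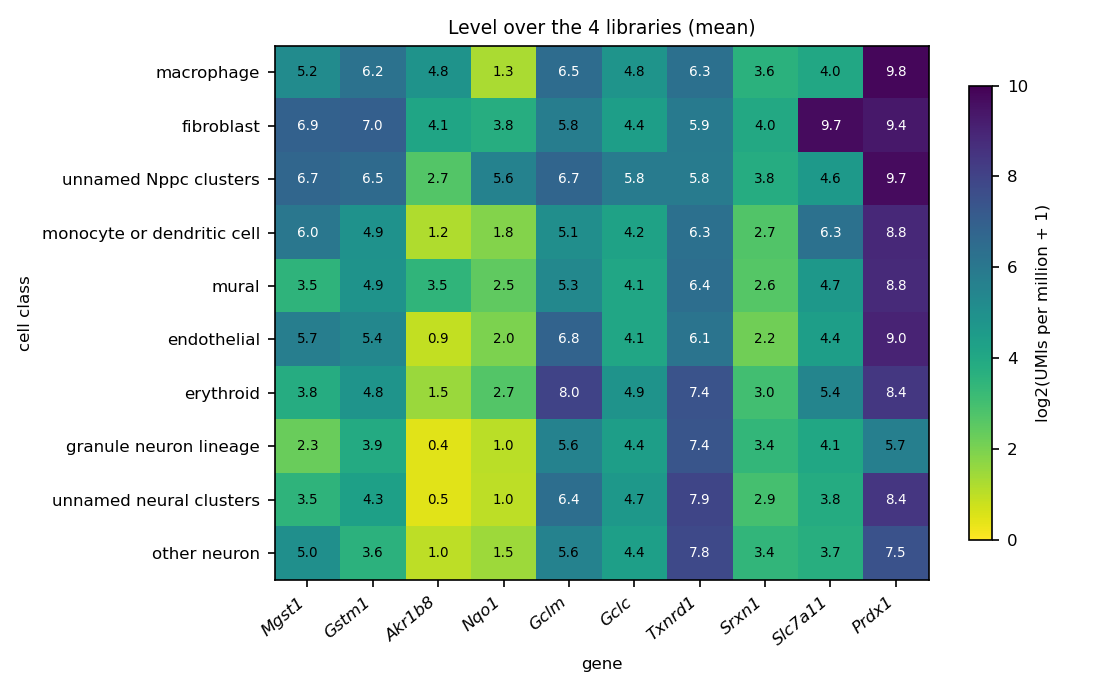
Level of each gene in each of 10 cell classes as log2(CPM + 1), from the mean of 4 libraries normalised together. Slc7a11 stands out in fibroblasts, Nqo1 in the Nppc-led clusters, and Prdx1 is lowest in the granule neuron lineage.

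Cells were grouped without these 10 genes, but from other genes of the same cells, so differences between classes are described and not read as tests. Against the mean of the other classes, 8 of the 10 passed an adjusted p of 0.05 upward in the Nppc-led clusters, where 36.9% of all genes did. In fibroblasts 7 passed upward, against 38.2% of all genes, and in macrophages 5, against 37.6%. In granule neuron lineage cells 7 passed downward, against 35.8%. The genes most like each member over the 40 sums, among 16777 genes, were found by Pearson's r on log2(CPM + 1). The sums share libraries and classes, so r is a description. It rests on TMM factors, which raised Gclm and Gclc in erythroid cells, and r with totals only was not computed. For Slc7a11 these were Slc6a13, a GABA and taurine transporter, at 0.97 and Aldh1a2, which makes retinoic acid, at 0.96. For Txnrd1 they were Dcc, a netrin receptor, at 0.94 and Lhx1os at 0.93, and for Prdx1 Apip at 0.94 and Mcee at 0.93. Nqo1 was most like Eya2 (0.92) and Crym (0.91), Akr1b8 like Gprc5c (0.92) and Ggt5, a gamma-glutamyltransferase (0.91), and Gstm1 like Gaa (0.91) and Hist1h2bc (0.90). Mgst1 was most like Pdxk (0.88) and Slc22a18 (0.86), Gclc like Rmdn3 (0.83) and Gm32592 (0.82), Srxn1 like Fhit (0.81) and Ndufv3 (0.77), and Gclm like Glrx5 (0.79) and Psmf1 (0.76). Among the members themselves, Gstm1 and Prdx1 had the highest r of any pair, at 0.78, and Gclm and Gclc, which form an enzyme together, had 0.48. The most alike genes were picked from far more candidates, so their r cannot be set against r between members.

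Among 142 further genes of the same pathways, chosen with earlier results of these data known, the genotypes were tested with edgeR's quasi-likelihood test and Benjamini-Hochberg adjustment over all genes of a class. In macrophages 120 were tested, and 1 passed upward and 0 downward, against 0.0241% of all genes in each direction and 0.0482% in either. This was Slc48a1, a haem transporter of lysosomes, which rose to 167 and 146 CPM in NdpKO, against 54.5 and 77.2 CPM in NdpWT (log2 change 1.25 ± 0.17, edgeR adjusted p = 0.0397). Hmox1, the haem oxygenase that NRF2 and BACH1 regulate, had 1455 and 1135 CPM in NdpKO and 358 and 536 CPM in NdpWT, and just missed (log2 change 1.54 ± 0.21, edgeR adjusted p = 0.0524). The call for Slc48a1 was lost without NdpKO library 1 (edgeR adjusted p = 0.576) or NdpKO library 2 (0.125), and when the pathway genes were allowed to shape the clusters (0.0667), with the same direction throughout.

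By list, 22 of the 25 tested NRF2 targets outside the members had a log2 change above 0 in macrophages, with a median of 0.28, and 16 had both NdpKO libraries above both NdpWT libraries, where 16.5% of all genes did. The median over all genes was -0.01, and the list was chosen with earlier results known. Of 7 genes that supply NADPH, which both systems consume, 6 were above 0, with a median of 0.35. The 19 thioredoxin and peroxiredoxin genes had a median of 0.01 and the 16 tested glutathione transferases one of 0.03. The 14 tested targets of ATF4, which also drives Slc7a11, had a median of -0.20, with 12 of 14 below 0. None of the genes in these lists passed in macrophages other than Slc48a1.

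In fibroblasts 0 of 132 tested pathway genes passed with edgeR, against 0.0128% of all genes in either direction, all of them higher (0.0128%). Of the 132, 31 (23.5%) had an unadjusted edgeR p under 0.05, where 9.16% of all genes did. The same shares were 21.7% and 5.42% in macrophages and 22.3% and 12.6% in endothelial cells. The lists were chosen with earlier results known, so these shares are a description. DESeq2 called 9 in fibroblasts, where it called 131 of all 15630 genes (0.838%). NdpKO fibroblasts had 190 and 194 CPM of Gsta4, a transferase for the lipid peroxidation product 4-hydroxynonenal, and NdpWT fibroblasts 101 and 92.0 CPM (log2 change 1.00 ± 0.12, edgeR adjusted p = 0.0642). Of 20 tested glutathione transferases, 16 were above 0, with a median of 0.29, and of 16 ATF4 targets 13 were below 0, with a median of -0.20. In endothelial cells 1 of 121 tested pathway genes rose and 4 fell, against 0.909% and 1.34% of all genes and 2.25% in either direction. Gsta4 fell to 60.2 and 99.5 CPM in NdpKO, against 354 and 275 CPM in NdpWT (log2 change -1.98 ± 0.26, edgeR adjusted p = 0.0147). Gstm7 fell to 12.9 and 10.6 CPM in NdpKO, against 33.9 and 24.2 CPM in NdpWT (log2 change -1.27 ± 0.23, edgeR adjusted p = 0.0134). Fth1, the ferritin heavy chain, fell to 2381 and 2175 CPM in NdpKO, against 8304 and 6491 CPM in NdpWT (log2 change -1.70 ± 0.19, edgeR adjusted p = 0.000560). Hmox1 fell by 0.93 on the log2 scale (edgeR adjusted p = 0.0254), and Ces2g, a carboxylesterase, rose by 1.32 (edgeR adjusted p = 0.0374). Without NdpWT library 1 only the call for Fth1 was kept among these 5 endothelial genes, with an edgeR adjusted p of 0.0722 for Gsta4, 0.0970 for Gstm7, 0.178 for Hmox1 and 0.0828 for Ces2g. DESeq2 called neither Hmox1 (adjusted p = 0.0549) nor Ces2g (0.141), Ces2g was also lost without NdpKO library 1 (0.0534) or NdpWT library 2 (0.249), and Gsta4 was lost with the stricter cell filter (0.0591). In the other 7 classes 0 pathway genes passed with edgeR (in mural cells 0.0368% of all genes did, 0.0184% higher and 0.0184% lower), 2 to 11 had an unadjusted p under 0.05, and DESeq2 called 1 in the Nppc-led clusters and 0 in the other 6. These were 1.57% to 10.1% of the pathway genes tested, where 1.39% to 6.73% of all genes had such a p, and DESeq2 called 13 of all 13619 genes in the Nppc-led clusters.

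**Figure D4:**
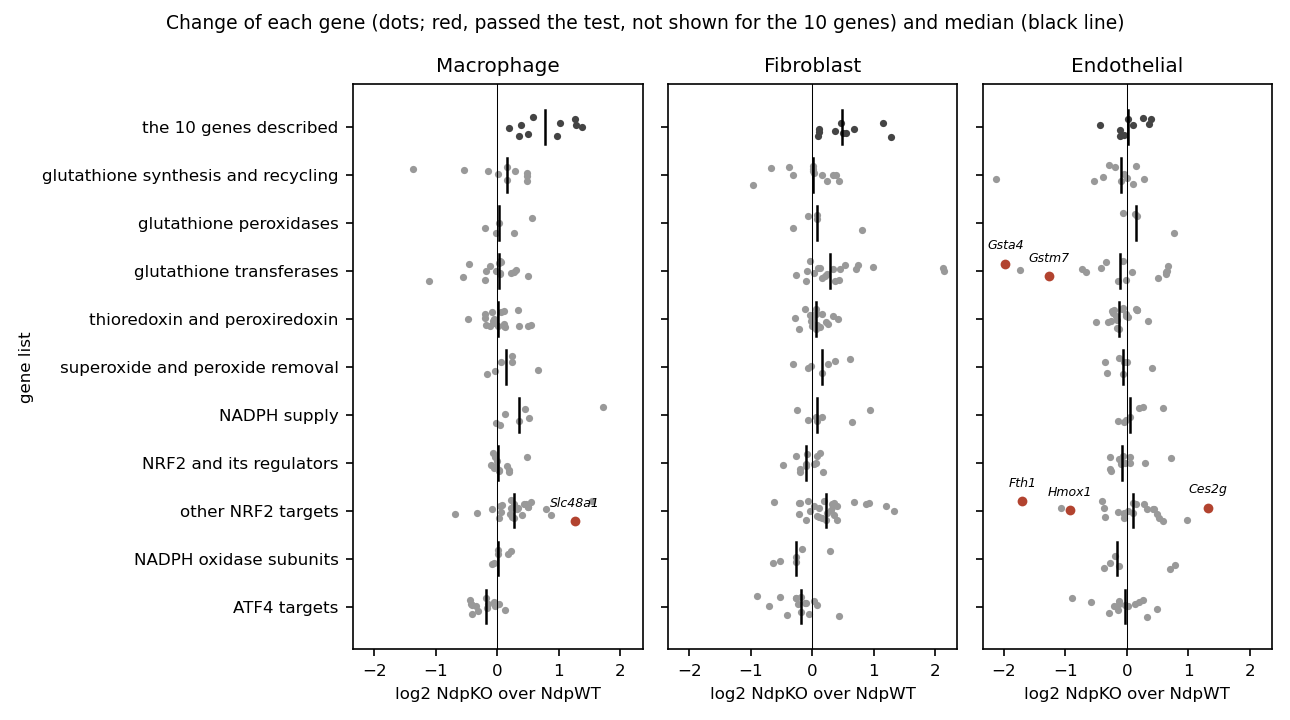
Log2 change, NdpKO over NdpWT, of each tested gene of the pathway lists in macrophages, fibroblasts and endothelial cells, with a black line at each list's median and red dots for genes that passed the test (not marked for the 10 genes described). Slc48a1 is the only gene marked in macrophages, and 4 of 5 marked in endothelial cells lie below 0.

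In the 7 classes with fewer than 50 cells in at least 1 library, levels were read by plain totals and genotypes were not compared. Astroglia had the most Gstm1 of any class by this measure, with 253 and 252 CPM in NdpKO and 244 and 284 CPM in NdpWT. Astroglial Mgst1 had 302 and 163 CPM in NdpKO and 181 and 118 CPM in NdpWT. Fibroblasts had a mean of 130 CPM of Mgst1 by the same measure. Astroglial Slc7a11 had 75.0 and 216 CPM in NdpKO and 132 and 83.3 CPM in NdpWT. Neutrophils had 151 and 292 CPM of Mgst1 in NdpKO and 233 and 388 CPM in NdpWT, on 10 to 54 UMIs per library. Their Slc7a11 had 146 and 207 CPM in NdpKO and 186 and 431 CPM in NdpWT, on 8 to 60 UMIs. The 10 fibroblast markers summed to 6165 and 668 CPM in neutrophils of NdpKO and 7821 and 1129 CPM in those of NdpWT, and the part of fibroblast RNA in their Slc7a11 was not tested. Mast cells had 162 and 170 CPM of Gstm1 in NdpKO and 151 and 113 CPM in NdpWT, while Mgst1 had 0 or 3 UMIs in NdpKO and 0 or 1 in NdpWT.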

How the data were processed

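The deposited files hold UMI counts per gene and barcode for 4 libraries, which the authors obtained from Cell Ranger 6.1.2 and mm10, per the submitters' processing notes. The sources used here do not say whether free RNA or doublets had been removed. The totals per library ran from 114363848 to 125981161 UMIs. The 10 genes, the pathway lists and the cell type markers were chosen with earlier results of these data known. A barcode was kept with 500 or more genes, 1000 or more UMIs and no more than 10% mitochondrial UMIs. Scrublet called 97, 212, 241 and 257 doublets, or 1.70% to 2.59%, against 10.3% to 15.3% estimated from the number of barcodes, so doublets may remain. Cells were clustered with scanpy 1.11.5 and leidenalg 0.10.2, leaving the 10 genes and the lists out of the variable genes. Clusters were named from at least 3 fixed markers. The pooling of unnamed clusters and the removal of 2 clusters (177 cells) that mixed erythroid with other markers were decided after the clusters were seen. Names rebuilt in this way may differ from the study's.

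Within each library the UMI counts of a class were added up, and the classes that reached 50 cells in all 4 libraries were fitted with edgeR 4.0.16 (R 4.3.3, limma 3.58.1; quasi-likelihood test, TMM factors, filterByExpr with a minimum count of 10, Benjamini-Hochberg over all genes of a class, threshold 0.05). Of 100 pairs of member and class, 89 passed the filter. Log2 changes are NdpKO over NdpWT with the SE of that fit. DESeq2 1.42.0 was an alternative. Named were the 10 genes, pathway genes that passed, the 2 genes most like each member, Ndp and Hmox1. The procedure was tested on simulated data. Promoters are RefSeq's for GRCm38.p6. Per the labels' protocol, libraries came from 4 runs, with each NdpWT run matched by litter to an NdpKO run; no label says that the replicate number marks the match, so the block is an alternative. Intervals and limits on counts cover counting error only.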

Additional observations from a re-analysis of the deposited data

Results flagged for a closer look

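In 15 cases a gene's libraries were separated by genotype in opposite directions in different classes, and these differences between classes were not tested. Over all genes, 11.4% to 21% of those tested in a class lay above in NdpKO without overlap and 11.8% to 21.7% below. How many of all genes did so in opposite directions was not counted, so the 15 cases say nothing particular about these genes. The members gave 10 of them, over 7 genes, with every tested member searched. Of the pathway genes only those that passed the test were searched, so their counts are not comparable. Gstm1 had a log2 change of -0.43 in endothelial cells, where fibroblasts, macrophages and 4 other classes had it above 0 without overlap. Gclm had -0.30 in the granule neuron lineage, -0.53 in other neurons and -0.12 in the unnamed neural clusters, against values above 0 in fibroblasts, macrophages and monocytes or dendritic cells. In other neurons Mgst1 had -1.23, Srxn1 -0.57 and Prdx1 -0.26, each above 0 in fibroblasts and macrophages. Akr1b8 had -0.28 in mural cells. Txnrd1 had -0.33 in mural cells and -0.13 in the Nppc-led clusters, with the opposite direction in endothelial cells and macrophages. Among the pathway genes, endothelial cells had -1.27 for Gstm7, -1.98 for Gsta4, -0.93 for Hmox1 and -1.70 for Fth1, all above 0 in fibroblasts. Slc48a1 had 1.25 in macrophages and was lower in NdpKO monocytes or dendritic cells.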

How the results depend on the processing

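Across 12 alternatives, 84 of 120 counts of pathway genes called between genotypes and 176 of 200 counts of members called between classes stayed within 1.5 times. Of 1062 recomputed changes of members, 986 moved by less than the spread between replicates and 70 took the other sign. In macrophages and fibroblasts 8 of 238 did so, all for Slc7a11 or Txnrd1. Endothelial, erythroid, mural and granule neuron lineage cells, other neurons and monocytes or dendritic cells held no cluster of low depth. Leaving such clusters out repeated the genotype fit in these classes, so its values there could not move and were counted as unmoved. Counts of 0 in both fits were also counted as within 1.5 times. Of 72 recomputed adjusted p-values of called pathway genes, 59 stayed past the threshold and 0 changed direction. Counts of pathway genes called that moved, first by setting: with no filter on low counts, 12 in endothelial cells (5 in the fit described), 13 in fibroblasts (0), 6 in macrophages (1), 1 in mural cells (0), 1 in other neurons (0) and 2 in the Nppc-led clusters (0). With the replicate number as a block the counts were 11, 21, 3, 1, 1 and 2 in the same order; over all genes the block raised the calls to 650 in endothelial cells (285), 981 in fibroblasts (2) and 54 in macrophages (6). Endothelial Gsta4 had an edgeR adjusted p of 0.144 with the block. Per the labels' protocol each NdpWT run was litter matched to an NdpKO run, but no label ties the replicate number to the match, and same-numbered libraries deviated together with correlations of 0.04 to 0.38. With DESeq2 they were 9 in fibroblasts, 2 in macrophages and 1 in the Nppc-led clusters. Macrophages had 2 with RLE factors, 2 with totals only, 2 with the stricter cell filter and 0 when the members and lists shaped the clusters. Fibroblasts had 4 with the stricter filter and 3 without the clusters of low depth, an alternative added after the data were seen. Leaving out each library gave 1 to 10 in endothelial cells, 0 to 11 in fibroblasts, 0 to 8 in macrophages, 0 to 5 in mural cells, and 0 to 1 in the granule neuron lineage, other neurons and Nppc-led clusters. For levels between classes, scaling by totals only gave 1 member higher and 9 lower in erythroid cells (3 and 1), 2 higher in the granule neuron lineage (1), 3 higher in macrophages (5), 3 lower in mural cells (5), 3 higher and 3 lower in other neurons (1 and 5), 3 higher in the neural clusters (1) and 1 lower in the Nppc-led clusters (2). No filter gave 2 lower in erythroid cells and 3 higher in the neural clusters. The stricter cell filter gave 4 lower in erythroid cells and 1 lower in fibroblasts. The other clustering gave 2 lower in erythroid and 1 higher in mural cells. Leaving out each library gave 3 to 5 lower in endothelial, mural and other neuron classes, 1 to 2 lower in erythroid and Nppc-led cells, 1 to 3 lower in fibroblasts and in monocytes or dendritic cells, and 1 to 2 higher in the neural clusters. The causes were not tested. DESeq2 and the block were not run for levels. Depth limits Nqo1 in macrophages, at 9 to 10 UMIs per library.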
